A study of Oryza sativa with 18 samples.

Results

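The metallothionein cluster of rice chromosome 12 was followed through Zn deficiency and Zn resupply in shoots and roots. Its members were the loci of the gene table whose name held one of 6 RAP-DB identifiers, Os12g0567800, Os12g0568200, Os12g0568500, Os12g0570700, Os12g0571000 and Os12g0571100. All 6 were found, each on a single locus, among 34716 loci in all. Poly(A) RNA of Nipponbare rice seedlings was sequenced in 6 groups of 3 libraries. Every plant had first grown for 1 week in solution with 1.5 µM ZnSO4. The +Zn shoots (ZPS) and roots (ZPR) stayed on this solution, the -Zn shoots (ZMS) and roots (ZMR) then had no ZnSO4 for 2 weeks, and the Zn-resupply shoots (ZRS) and roots (ZRR) had the same 2 weeks without Zn followed by 3 days with 1.5 µM ZnSO4 again. Each library was a pool of 3 seedlings, so the tests measure the spread between pools. Resupply cannot be told apart from the 3 days of added age or from a separate harvest.

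Metallothioneins are small, cysteine-rich proteins whose thiol groups bind Zn and Cu, and they are known as intracellular buffers of these metals and as scavengers of reactive oxygen species. Plant metallothioneins fall into types by the arrangement of their cysteines. In type 1 proteins the cysteines lie in a pair of short domains, one at each end, joined by a long linker, and type 1 genes are known in many plants for strong expression in roots.

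The members lay between bases 23352018 and 23516034 of chromosome 12 (IRGSP-1.0), a span of 164017 bases, in 3 loci on the minus strand followed by 3 loci on the plus strand. Os12g0567800 (minus strand, 23352018 to 23353256) was annotated as a plant metallothionein of family 15. Os12g0568200 (minus strand, 23383189 to 23384177) and Os12g0568500 (minus strand, 23390501 to 23391407) were annotated as type 1 metallothionein-like proteins. Os12g0570700 (plus strand, 23501423 to 23502359) was annotated as similar to a type 1 metallothionein-like protein, and Os12g0571000 (plus strand, 23512501 to 23513406) as a type 1 protein. Os12g0571100 (plus strand, 23513770 to 23516034) carried the annotation of a metallothionein-like scavenger of reactive oxygen species. The annotated transcript of every member had 3 exons and was between 502 and 600 bases long. The minus-strand and plus-strand members were 110015 bases apart, whereas the Os12g0571000 and Os12g0571100 loci were separated by 363 bases.

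The members were annotated as one gene family and the alignment let a read count at several places, so reads of near-identical copies may be spread over them. The sequences were not compared here, and how many reads the copies share was not measured. Each value is therefore the level assigned to a locus and is less certain for a single copy than for the 6 loci together.

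Levels are given in FPKM, which are fragment numbers scaled to transcript length and to the mapped reads of a library, in the order of replicates 1, 2 and 3. The cluster was expressed in roots. The summed FPKM of the 6 loci was 4401, 4997 and 8832 in ZPR, which was 1.38%, 1.53% and 2.68% of the summed FPKM of all loci. It was 8993, 6728 and 4137 in ZMR and 2813, 1507 and 281 in ZRR. In shoots the sum lay between 16.4 and 52.5 FPKM in the 9 libraries. All 9 root libraries were thus above all 9 shoot libraries, and the 3 ZRR libraries were below the 6 other root libraries.

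The cluster held some of the most abundant transcripts of the root. Os12g0571100 ranked first of all loci in 6 of the 9 root libraries, 3rd in ZPR 1 and ZRR 2, and 122nd in ZRR 3. Os12g0568500 ranked first in ZPR 1 and second in ZPR 2 and ZPR 3, between 5th and 31st in ZMR, and between 74th and 4329th in ZRR. The other 4 loci were much lower in ZPR, with means of 44.7 ± 15.5 FPKM for Os12g0567800, 54.1 ± 23.0 FPKM for Os12g0568200, 57.8 ± 20.0 FPKM for Os12g0571000 and 170 ± 200 FPKM for Os12g0570700 (SD, n = 3 each). These 4 overlapped in their ranges, and Os12g0568500 (2839 ± 638 FPKM) overlapped with Os12g0571100 (2912 ± 1574 FPKM). Within each ZPR pool Os12g0570700 was the highest of the 4, by little in ZPR 2, and Os12g0567800 the lowest. By its annotated isoform (66.3, 48.8 and 96.3 FPKM) Os12g0567800 was instead above Os12g0568200 and Os12g0571000 in each pool. The order of Os12g0568500 and Os12g0571100 differed between pools.

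**Figure D1:**
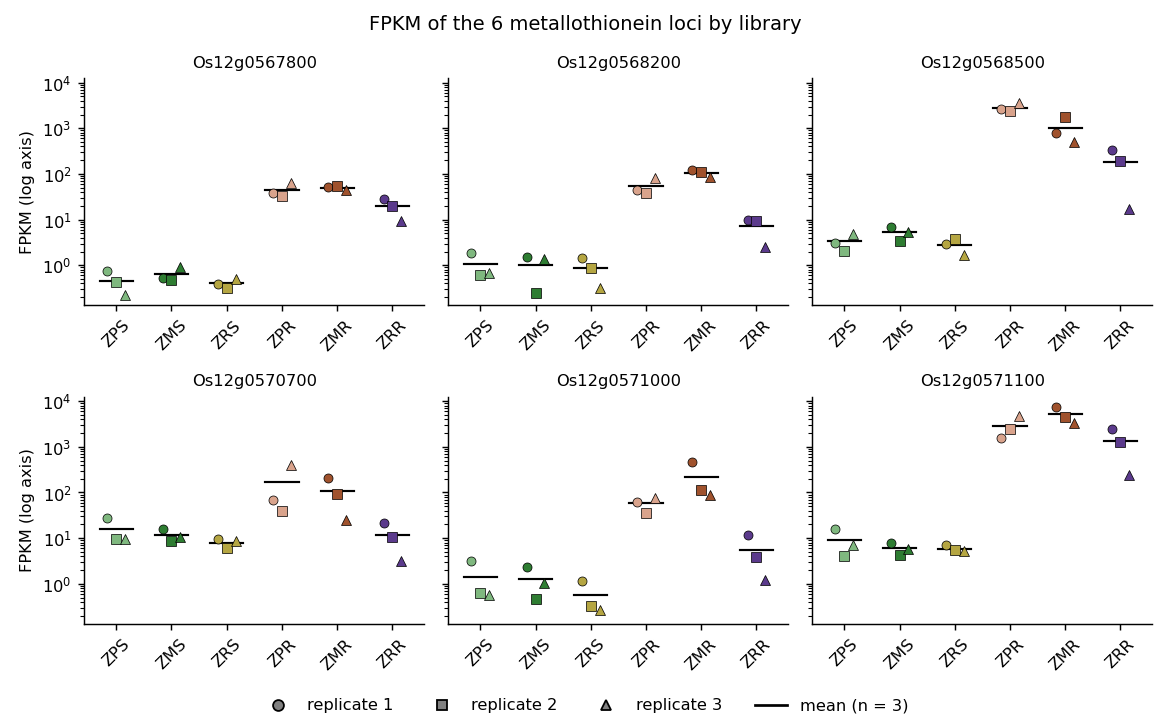
FPKM of each of the 6 loci (log axis) in the 18 libraries, by group, with symbols for replicates 1 to 3 and a bar for the group mean. Every locus was higher in the ZPR libraries than in the ZPS libraries, and the 3 ZRR libraries lay below the 3 ZMR libraries at each locus, with ZRR 3 the lowest root library at all 6.

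Between tissues with Zn, all 6 members were higher in roots. A locus was called where its log2 fold change in limma was 1 or more in size and its Benjamini-Hochberg adjusted p was 0.05 or less, and 20.5% of the 24431 loci tested were called higher in ZPR than in ZPS. The root libraries were all above the shoot libraries for 6 of 6 members, and for 40.9% of the tested loci. Fold changes are on the log2(FPKM + 0.5) scale, which understates the change of low genes. The median log2 fold change of the members was 5.34, whereas that of all tested loci was 0.38.

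Os12g0568500 differed most, with 3.05, 2.09 and 4.93 FPKM in ZPS and 2599, 2355 and 3562 FPKM in ZPR. Its log2 fold change was 9.57 (SE 0.79, limma adjusted p = 1.13e-07). Os12g0571100 had 16.0, 3.99 and 7.24 FPKM in ZPS and 1588, 2496 and 4652 FPKM in ZPR, a log2 fold change of 8.31 (SE 0.68, limma adjusted p = 9.51e-08). Both genes were thus abundant in every ZPR library and low in shoots. Os12g0567800, Os12g0568200 and Os12g0571000 were higher in roots by 5.53, 5.14 and 5.10 on the log2 scale.

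Os12g0570700 was the member with the highest level in shoots and the smallest difference between tissues. It had 27.7, 9.45 and 9.49 FPKM in ZPS against 69.9, 38.5 and 400.3 FPKM in ZPR. Its log2 fold change was 2.87 (SE 0.86, limma adjusted p = 0.0133). This call rested on ZPR 3, since without that library the log2 fold change was 1.89 and the adjusted p was 0.0751. In shoots Os12g0570700 gave between 36.5% and 54.9% of the summed FPKM of the cluster, whereas in roots it gave between 0.61% and 4.53%.

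The shoot levels of some members were close to those of root marker genes in the same libraries. The marker list, of Lsi1, Lsi2, RCc3 and the nitrate uptake genes NRT2.1 and NAR2.1, covered 7 loci. Its summed level in shoots was between 0.165% and 0.711% of the ZPR mean, and between 75.0% and 120.5% in ZPR. RCc3 and NRT2.1 were listed at 0 in 6 and 8 of the 9 root libraries, so that the list rested on the other 3 genes except in ZRR 1, where NRT2.1 had 284 FPKM. NAR2.1 itself was at 781, 20.2 and 1036 FPKM in ZPR and at 885, 849 and 11.6 FPKM in ZRR. The marker sums of ZPR 2 and ZRR 3 thus held little of it, and the ZPR mean includes ZPR 2. As percent of their own ZPR means, Os12g0568500 was between 0.0580% and 0.245% and Os12g0571100 between 0.137% and 0.549% in shoots. Both were below the upper end of the markers. Os12g0570700 was between 3.65% and 16.4%, above the markers in every shoot library. Os12g0567800, Os12g0568200 and Os12g0571000 were also above the markers in every shoot library, though at lower percentages than Os12g0570700. The margin was small for Os12g0571000 in ZRS 3, at 0.453% against 0.433% for the markers. The part that root material in the shoot samples had in these levels was not tested. Green tissue markers summed to between 3585 and 6910 FPKM in shoots and between 110 and 226 FPKM in roots, which matched the tissue labels.

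In shoots, no member was called under Zn deficiency or after resupply. Of 20512 loci, limma called 0.0878% in ZMS/ZPS, 0.0683% in ZRS/ZMS and 0.0244% in ZRS/ZPS, and 0 of 6 members in each, with 0 of 6 at an unadjusted p under 0.05 in each. The log2 fold changes of the members ran from -0.40 to 0.59 in ZMS/ZPS and from -0.82 to 0.01 in ZRS/ZMS. The median of all loci was itself shifted by -0.19 in ZRS/ZMS and by -0.16 in ZRS/ZPS, and the members' medians there were -0.41 and -0.31. Os12g0570700 was the only member with groups that did not overlap, with 9.36, 6.20 and 8.52 FPKM in ZRS, all below the 3 ZPS libraries, as were 7.31% of loci. In ZRS 1, 16.8% of the summed isoform FPKM was in assembled transcripts with the class codes i, p, u or e. In any other library it was at most 5.14%. What these codes stand for was not given in the sources used here. Leaving ZRS 1 out gave no call of a member.

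In roots under Zn deficiency the members did not move together, and none passed the test. In ZMR/ZPR limma called 0.0460% of 21717 loci, all of them higher, and 0 of 6 members, each with an adjusted p of 1 and 0 of 6 at an unadjusted p under 0.05. The members' log2 fold changes ran from -1.64 to 1.57, with a median of 0.55 against 0.00 (0.000782) for all loci. Os12g0568200 and Os12g0571000 had all ZMR libraries above all ZPR libraries, as did 4.48% of loci, and Os12g0568500 had them all below, as did 4.75%.

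Os12g0568200 had 44.5, 37.4 and 80.4 FPKM in ZPR and 122, 112 and 84.4 FPKM in ZMR, a log2 difference of 1.03 (SE 0.49). Os12g0571000 had 61.4, 36.2 and 75.7 FPKM in ZPR and 460, 112 and 88.1 FPKM in ZMR, a log2 difference of 1.57 (SE 0.81). The closest libraries of both genes, ZPR 3 and ZMR 3, were near each other, and the mean of Os12g0571000 in ZMR rested largely on ZMR 1. Os12g0568500 went the other way, with 795, 1806 and 497 FPKM in ZMR against 2355 FPKM or more in ZPR, and a log2 difference of -1.64 (95% interval -3.92 to 0.64).

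The remaining 3 members had overlapping groups. Os12g0571100 had 7357, 4553 and 3397 FPKM in ZMR, a log2 difference of 0.88 (SE 0.82), and Os12g0567800 had 51.9, 54.4 and 44.5 FPKM, a log2 difference of 0.22 (SE 0.38). Os12g0570700 varied most among the pools of ZPR and of ZMR, from 38.5 to 400.3 FPKM in ZPR and from 25.1 to 207 FPKM in ZMR. Its log2 difference of -0.39 (SE 1.07) turned to 0.59 without ZPR 3 and to 0.42 without ZMR 3.

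The opposite differences of Os12g0568500 and Os12g0571100 showed in the makeup of the cluster. In ZPR, Os12g0568500 gave 59.1%, 47.1% and 40.3% of the summed FPKM and Os12g0571100 gave 36.1%, 50.0% and 52.7%. In ZMR, Os12g0568500 gave 8.84%, 26.8% and 12.02% and Os12g0571100 gave 81.8%, 67.7% and 82.1%. The makeup thus went from a near even pair to a cluster led by Os12g0571100 in each of the 3 ZMR pools. The ratio of Os12g0571100 to Os12g0568500 in the ZPR pools was 0.611, 1.06 and 1.31. In the ZMR pools the ratio was 9.26, 2.52 and 6.83, and in the ZRR pools 7.30, 6.64 and 14.3. It was picked after its values were seen and is given as a description without a test. With the FPKM of the annotated isoforms in place of the locus values, it was 0.597, 1.29 and 1.58 in ZPR and between 3.06 and 11.2 in ZMR, and the groups again did not overlap.

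**Figure D2:**
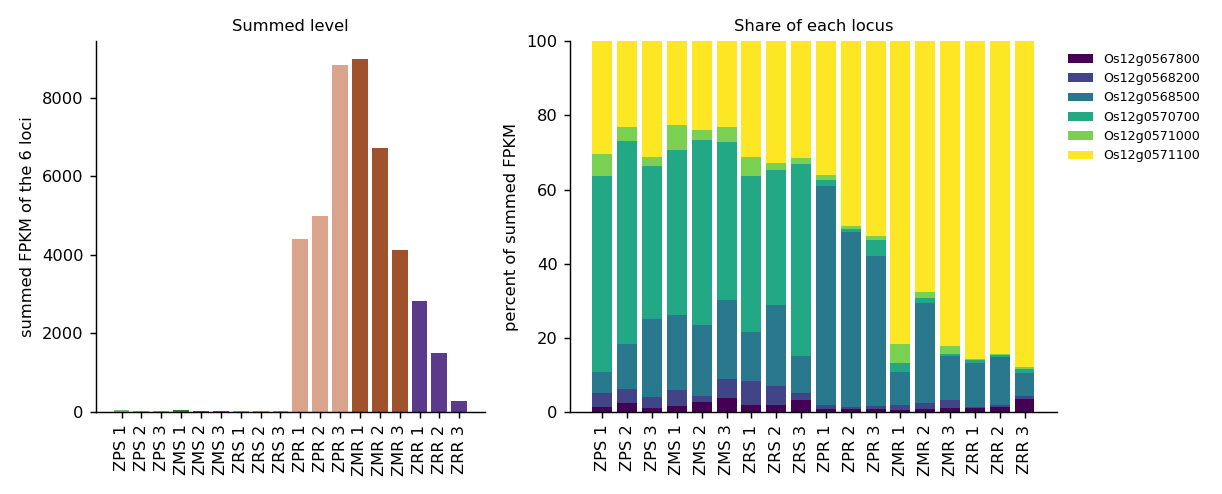
Left, summed FPKM of the 6 loci in each of the 18 libraries, coloured by group, and right, the percent of that sum given by each locus. Os12g0571100 gave 36.1% to 52.7% of the sum in ZPR, 67.7% to 82.1% in ZMR and 84.4% to 88.0% in ZRR, and the shoot bars, with sums of at most 52.5 FPKM, had Os12g0570700 as their largest part.

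After Zn resupply all 6 members were lower in roots, and 1 of them passed the test. In ZRR/ZMR each of the 6 had all 3 ZRR libraries below all 3 ZMR libraries, as did 3.07% of the 21717 loci tested. The log2 fold changes ran from -5.21 to -1.47, with a median of -3.08 against 0.07 for all loci. Os12g0568200 was called, where limma called 0.120% of loci lower, and 6 of 6 members had an unadjusted p under 0.05, as had 762 of all loci tested. In bulk tissue, fewer cells that express these genes and less RNA per cell cannot be told apart.

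Os12g0568200 fell to 10.0, 9.23 and 2.54 FPKM in ZRR from 122, 112 and 84.4 FPKM in ZMR. Its log2 fold change was -3.96 (SE 0.49, 95% interval -5.07 to -2.85, limma adjusted p = 0.0281). The mean coverage behind these values was between 562 and 795 reads per base in ZMR and 70.8, 70.8 and 9.30 reads per base in ZRR. The drop was present in every ZRR pool, and no ZRR value came near the lowest ZMR value. The call was not made in 8 of 22 alternative fits, in which the adjusted p was between 0.0513 and 0.149 and the log2 fold change between -4.22 and -3.85. It was lost without any 1 of the ZMR libraries, without ZRR 2 and without ZPR 2, and was kept without ZRR 3 (log2 fold change -3.38, adjusted p = 0.0229).

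Os12g0571000 had the largest drop among the members, to 11.8, 3.85 and 1.18 FPKM in ZRR from 460, 112 and 88.1 FPKM in ZMR. Its log2 fold change of -5.21 (SE 0.81) did not pass, with a limma adjusted p of 0.106. It passed when the 18 libraries shared one fit (0.00375), when zeros beside a value above 1 FPKM were taken as missing (0.0302) and without ZRR 1 (0.0496).

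The other 4 members did not pass, with limma adjusted p-values between 0.805 and 0.983. Os12g0568500 had 330, 191 and 17.3 FPKM in ZRR, a log2 difference of -3.10 (SE 0.996) from ZMR. Os12g0571100, the most abundant member, had 2411, 1271 and 247 FPKM in ZRR, a log2 difference of -2.41 (SE 0.82). The ZRR pools of the pair were far apart, with ZRR 1 highest and ZRR 3 lowest, 19.1 times apart for Os12g0568500 and 9.76 times for Os12g0571100. Os12g0570700 had 21.3, 10.4 and 3.09 FPKM in ZRR (log2 difference -3.05, SE 1.07). Os12g0567800 had 28.3, 20.4 and 9.53 FPKM, the smallest difference (-1.47, SE 0.38). The study, which used Cuffdiff, counted Os12g0570700 and Os12g0571000 among its differentially expressed genes, which neither was here in the main fit of this comparison. It added that earlier work had reported both as recovered by Zn resupply. Its own lists of recovered genes hold neither, and its text does not name the comparison.

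The resupplied roots were also below roots that never lacked Zn. In ZRR/ZPR the groups did not overlap for 5 of 6 members, all of them lower in ZRR, against 3.86% of loci, and Os12g0571100 was the exception because ZRR 1 (2411 FPKM) was above ZPR 1 (1588 FPKM). The members' median log2 fold change was -3.19 against 0.08 for all loci. Limma called 0 of 6 members, and 0.0230% of loci in either direction, with 5 of 6 members and 958 of the 21717 loci at an unadjusted p under 0.05. The largest difference was that of Os12g0568500, -4.75 (SE 0.996, adjusted p = 0.356), and the lowest adjusted p was that of Os12g0568200, with -2.93 (SE 0.49, adjusted p = 0.178). This comparison and ZRR/ZMR share the ZRR libraries.

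**Figure D3:**
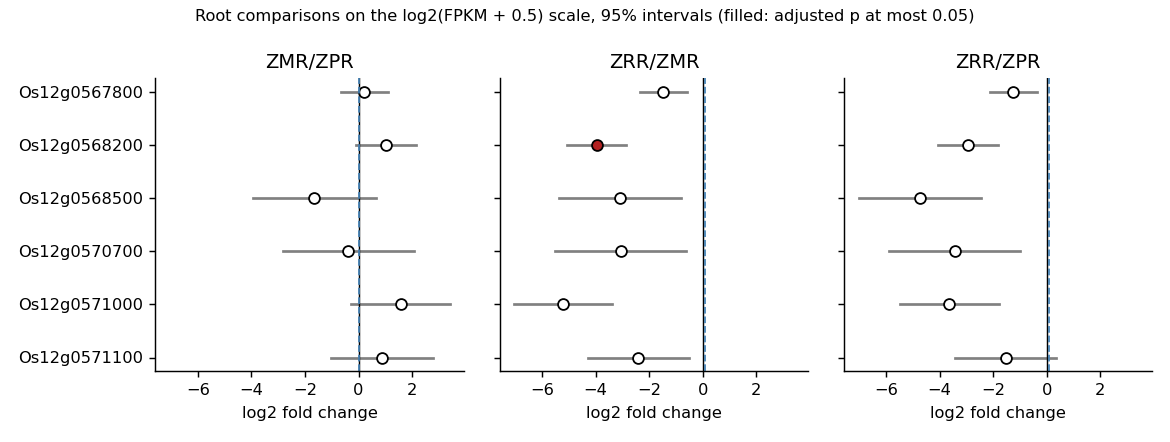
Log2 fold changes of the 6 loci in the 3 root comparisons, with 95% intervals from limma; filled points passed the thresholds and the dashed line is the median of all tested loci. In ZRR/ZMR all 6 points lay between -5.21 and -1.47 and Os12g0568200 passed, whereas in ZMR/ZPR the points lay on both sides of 0.

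ZRR 3 stood apart from the other root libraries and weighed on these values. It was the shallowest library, with 3.67 reads per base per FPKM against 6.001 to 7.75 in the other 17, and its root markers summed to 759 FPKM against 2324 and 2702 FPKM in ZRR 1 and ZRR 2. Against the ZPR mean the markers were at 30.3% in ZRR 3, and the members between 0.609% and 21.3%. The part that depth or tissue makeup had in the low values of ZRR 3 was not tested. In ZRR 1 and ZRR 2 the root markers were at 92.8% and 108% of the ZPR mean, although the single markers differed. Lsi2 was at 43.4 and 969 FPKM in these libraries against 906 to 1020 FPKM in ZPR, and NRT2.1 was at 284 FPKM in ZRR 1 and listed at 0 in the other 17 libraries. Lsi1 was at 1112 and 884 FPKM against 881 to 961 FPKM in ZPR. The sum in ZRR 1 thus held 1 marker far below its ZPR levels and 1 marker seen in no other library. In the same libraries Os12g0571100 was nearest to the ZPR mean, at 82.8% and 43.7%, followed by Os12g0567800 at 63.4% and 45.6%. The other 4 members were lower, with Os12g0568200 at 18.5% and 17.1%, Os12g0571000 at 20.4% and 6.66%, Os12g0570700 at 12.5% and 6.15%, and Os12g0568500 at 11.6% and 6.75%. With ZRR 1 and ZRR 2 alone, all 6 members were still below all ZMR libraries, as were 5.67% of loci.

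The difference between tissues in the response was tested as an interaction in 24431 loci. For the resupply change, root minus shoot, the members' values ran from -4.55 to -1.15, with a median of -2.49 against 0.23 for all loci. Limma called 0 of 6 members, and 0.106% of loci, with 4 of 6 members and 1305 of all loci at an unadjusted p under 0.05. Os12g0568200 came nearest, with -3.84 (SE 0.73, adjusted p = 0.0813), and it passed with a pseudocount of 1 (adjusted p = 0.0220) and with zeros taken as missing (adjusted p = 0.0123). For the -Zn change 0 of 6 members were called and 0.0655% of loci, with every member's adjusted p at 1 and 0 of 6 at an unadjusted p under 0.05. Although the resupply change passed the test in roots for 1 gene and in shoots for none, the difference between the tissues did not pass the test for any member, apart from the alternatives named for Os12g0568200 and a fit with the replicate number as a block, in which Os12g0571000 passed (-4.55, limma adjusted p = 0.0115).

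The levels of the members were correlated among the root libraries. Over the 9 root libraries the Pearson correlation of log2(FPKM + 0.5) was between 0.76 and 0.97 in the 15 pairs of members, with a median of 0.88. After the group means were subtracted it was between 0.63 and 0.97, and without ZRR 3 between 0.24 and 0.95. In the 9 shoot libraries, where levels were low, the correlation of the pairs was between 0.10 and 0.92, and between -0.32 and 0.91 after the group means were subtracted. Members of a library share its depth, and copies may share reads, so these values are descriptions.

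Among the loci between the members, 1 without an annotated name also fell after resupply in roots. MSTRG.30070, an assembled transcript of 3 exons on the minus strand (23378602 to 23380078), lay between Os12g0567800 and Os12g0568200. It had 12.1, 8.36 and 44.4 FPKM in ZPR, 122, 89.2 and 63.8 FPKM in ZMR and 0.683, 0.488 and 0.212 FPKM in ZRR. In ZMR it was above every ZPR library (log2 fold change 2.38, SE 0.56, limma adjusted p = 0.421, not called), and in ZRR it was near its shoot levels of 0.221 to 0.680 FPKM. Its drop in ZRR/ZMR was called, with a log2 fold change of -6.57 (SE 0.56, limma adjusted p = 0.00340), and it was called in all 22 alternatives. The study, which used Cuffdiff, listed this locus as induced by Zn deficiency in roots and recovered after resupply. What this transcript encodes was not analysed here.

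Another locus overlapped the members directly. Os12g0568166, on the plus strand from 23352518 to 23385840, ran opposite to Os12g0567800 and Os12g0568200. It had 0.925, 5.04 and 7.04 FPKM in ZPR, 2.45, 13.0 and 8.50 FPKM in ZMR and 0.296, 0.606 and 0.181 FPKM in ZRR, and its log2 difference in ZRR/ZMR was -3.08 (SE 0.71, limma adjusted p = 0.597). Whether the libraries kept strand was not stated, so reads of this locus and of the genes opposite to it may not be told apart. Of the 20 loci between the members, 10 were tested in roots, and in ZRR/ZMR their median log2 fold change was -0.55, with MSTRG.30070 as the only call. The 10 flanking loci, 7 of them tested, had a median of -0.18 and no call.

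**Figure D4:**
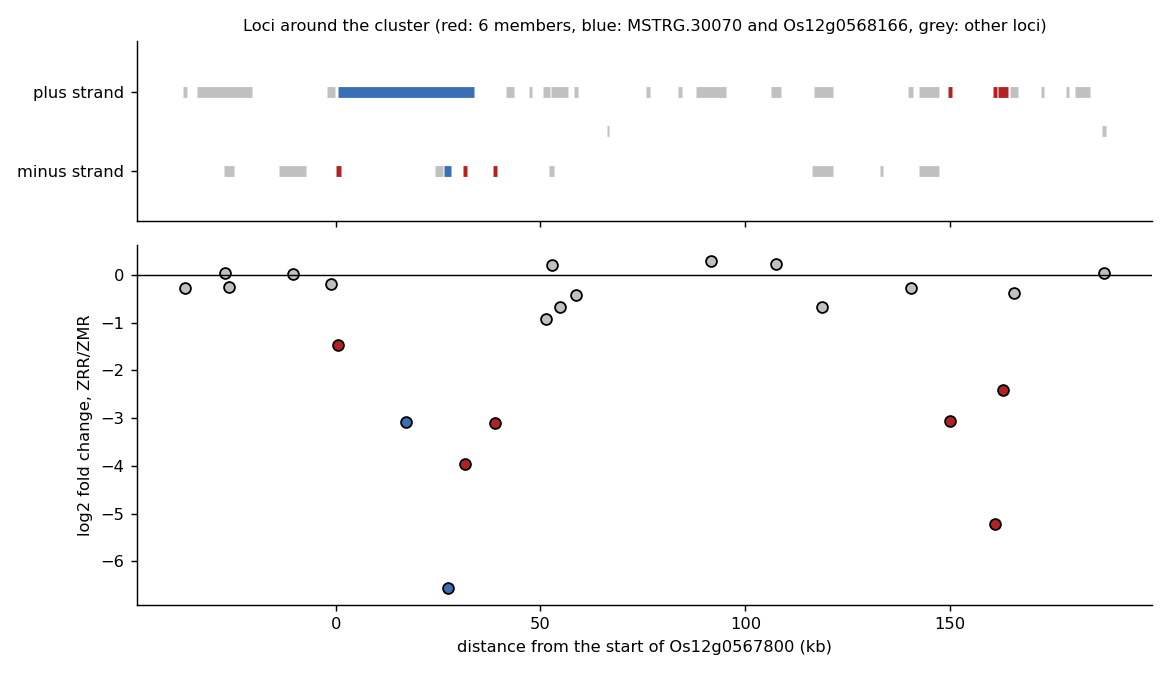
Top, the loci of the cluster by strand against the distance from the start of Os12g0567800 in kb (loci without a strand in the middle), and bottom, the log2 fold change in ZRR/ZMR of each tested locus at its midpoint. The 6 members (red) and MSTRG.30070 and Os12g0568166 (blue) lay at -1.47 or lower, and the other loci (grey) lay above them.

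The assembled transcripts affected the values of Os12g0567800 and Os12g0571100. The locus value of Os12g0567800 was divided by an exonic length of 1239 bases, 2.32 times the 535 bases of its annotated transcript. That of Os12g0571100 was divided by 662 bases, 1.21 times the 546 bases of its annotated transcript. These factors were the same in every library, so they changed levels between genes but not plain ratios between groups. On the log2(FPKM + 0.5) scale they cancel only where levels are far above the pseudocount of 0.5 FPKM, as in roots. Os12g0567800 had between 0.225 and 0.940 FPKM in shoots, so its differences within shoots and between tissues depend on the length used. An additional 4-exon transcript of Os12g0571100, which began at 23513770, upstream of the annotated start at 23515075, was listed at 307 FPKM in ZPR 1, at 6.96 FPKM in ZPR 3, at 10.3 FPKM in ZRR 3 and at 0 in the other 15 libraries. The annotated transcript had 1552 FPKM in ZPR 1.

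The other metallothioneins of the table, 8 loci on other chromosomes, showed no shared drop. Of their 6 loci tested in roots, limma called 0 in each of ZMR/ZPR, ZRR/ZMR and ZRR/ZPR, and the median log2 fold change in ZRR/ZMR was -0.19. Between tissues with Zn, 1 was called higher in roots and 3 lower. Os01g0200700, a type 3 metallothionein, was at 2445 ± 2087 FPKM in ZPS and 13.5 ± 13.5 FPKM in ZPR (SD, n = 3), the reverse of the chromosome 12 members. Os03g0288000 was root-expressed like them, with 276, 137 and 185 FPKM in ZPR, but had 364, 143 and 0.493 FPKM in ZRR, where only ZRR 3 was low. Os11g0704500, a type 1 gene on a locus merged with Os11g0704550, had 949, 1198 and 22.6 FPKM in ZMR against 45.3, 20.1 and 23.1 FPKM in ZPR, a log2 difference of 3.403 with overlapping groups.

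Genes of thiol-based metal binding, the list of glutathione, phytochelatin and related genes, had no call with Zn status. The list was made from the wording of the annotation. It includes the merged locus of Os06g0102300 and Os06g0102100, annotated as a cytochrome P450 and as a splicing variant of phytochelatin synthase. It also includes the merged locus of Os12g0528300 and Os12g0528400, annotated as similar to an adaptor complex protein and to glutathione synthetase. Which annotation belongs to which identifier was not settled here. Os01g0151500 was annotated as similar to a gamma-glutamyl transpeptidase. Of 8 tested loci, 0 were called in each root and shoot comparison of Zn status, and their median log2 fold change was 0.01 in ZMR/ZPR, 0.09 in ZRR/ZMR, -0.04 in ZMS/ZPS and -0.30 in ZRS/ZMS, where all loci had a median of -0.19. In ZRS/ZMS 3 of the 8, Os07g0462000, Os01g0151500 and the merged locus of Os12g0263000, had all ZRS libraries below all ZMS libraries, with log2 differences of -0.62, -0.73 and -0.41. Each had an unadjusted p under 0.05, and such a p was found in 1197 of the 20512 loci tested. The Zn transporter genes that mark Zn status were called in roots in both directions, 4 of 4 tested loci higher in ZMR/ZPR (3.03 to 4.11) and 4 of 4 lower in ZRR/ZMR (-3.52 to -2.49). In shoots 3 of 3 tested loci were called higher in ZMS/ZPS (2.81 to 3.47), but only 1 of 3 lower in ZRS/ZMS. There Os08g0207500 (-2.69, limma adjusted p = 0.0779) and Os07g0232800 (-2.19, limma adjusted p = 0.199) did not pass. Differences of that size could thus be missed in shoots after resupply. These transporters were named by the study from the same libraries and are not independent evidence of the treatment.

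The genes most like the cluster were searched over 18842 loci by the correlation of log2(FPKM + 0.5) with that of the summed FPKM of the 6 members. In roots this sum was mostly Os12g0571100 and Os12g0568500. Over the 18 libraries the closest was Os11g0275000, similar to a dienelactone hydrolase, with a Pearson r of 0.992, followed by MSTRG.1424, Os01g0816600, Os09g0356000 and Os01g0237000 (r between 0.988 and 0.989). These values rest mostly on the difference between roots and shoots. After the tissue means were subtracted Os11g0275000 was again first (r = 0.907), with 21.8, 19.9 and 12.3 FPKM as means of ZPR, ZMR and ZRR. Without ZRS 1 and ZRR 3 the first was Os07g0448200, with r of 0.995 over 16 libraries and 0.843 after subtraction, so which locus was closest depended on those libraries.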

How the data were processed

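The authors isolated poly(A) RNA, aligned reads to IRGSP-1.0 with TopHat, which allowed several alignments per read, and deposited FPKM of each locus and isoform per library. The deposited isoform table gives coverage too, in reads per base. Coverage was proportional to FPKM within a library, and their ratio was taken as depth. Its class codes are not explained in the sources used here. Counts of reads were not used. Cufflinks, Cuffdiff, Bowtie2 and FastQC are listed as further tools in the submitters' processing notes. The tool that assembled the loci was not given in the sources used here. Locus FPKM equalled isoform FPKM in 18997 of 19190 loci of 1 isoform and was in constant ratio to the length-weighted isoform sum in 15265 of 15265 loci of several.

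A linear model of log2(FPKM + 0.5) was made in limma 3.58.1 under R 4.3.3, with a trended eBayes step, separately for the 9 libraries of each tissue. A locus entered if 3 or more libraries had 0.5 FPKM or more. Tissue comparisons used 18 libraries. P-values were adjusted by Benjamini-Hochberg over all tested loci, and calls needed an adjusted p of at most 0.05 and a log2 fold change of 1 or more in size. With 3 against 3, an exact permutation test cannot go below 0.1, so none is given. Python 3.11.15 with pandas 2.3.3, numpy 2.4.6 and matplotlib 3.10.9 did the rest. Named genes were the members, 8 other metallothioneins, 8 thiol chelation loci, the loci between and beside the members and Zn status transporters. The 5 loci most correlated with the summed FPKM of the members were named too. Members and lists were chosen with earlier results of these data known. Alternatives were pseudocounts of 0.1 and 1, other filters, scalings and fits, a replicate block and each library left out. The reported fits held the group only, and no fit but the replicate block paired libraries by number. Deviations from group means correlated at 0.124 or more between libraries of the same number in ZMS/ZPS, ZRS/ZMS and ZMR/ZPR. In the other comparisons some were lower. Not every library of ZMS/ZPS and ZMR/ZPR correlated best with the library of its own number.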

Additional observations from a re-analysis of the deposited data

Results flagged for a closer look

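The change of MSTRG.30070 after resupply differed between roots and shoots, and the difference itself was tested. It was -6.36 on the log2 scale, root minus shoot (SE 0.64, limma interaction, adjusted p = 0.000266). The locus fell in the 3 ZRR libraries and its shoot levels stayed between 0.221 and 0.680 FPKM in the 9 shoot libraries. These levels were near the pseudocount of 0.5 FPKM, so a fall in shoots could hardly register. The difference between tissues therefore mostly repeats the change in roots. It was called in all 29 alternatives of this test.

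Of the Zn status transporters, the merged locus of Os05g0472400 and Os05g0472700 differed between tissues in its change under Zn deficiency, by 3.54 on the log2 scale, root minus shoot (SE 0.38, limma interaction, adjusted p = 0.000570). It had 1.64, 1.61 and 1.196 FPKM in ZPR and 35.3, 29.1 and 25.0 FPKM in ZMR, and between 0.0926 and 0.584 FPKM in shoots. Each ZMS library (0.584, 0.383 and 0.485 FPKM) was above every ZPS library (0.328, 0.111 and 0.326 FPKM). The pseudocount of 0.5 FPKM flattens a change at such levels.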

How the results depend on the processing

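The counts of members called in the 3 shoot comparisons, in ZMR/ZPR and in the root minus shoot difference of the -Zn change were 0 under every alternative run, and that of ZPR/ZPS was 6 except without ZPR replicate 3, where it was 5. In ZRR/ZMR the count of 1 became 0 with no filter beyond FPKM above 0, with the replicate block and with only the 6 libraries compared, and 2 with zeros taken as missing and with all 18 libraries in one fit. Leaving out 1 library at a time gave between 0 and 2. In ZRR/ZPR the count of 0 became 1 with zeros taken as missing and 2 with all 18 libraries in one fit. For the resupply difference between tissues it became 1 with a pseudocount of 1 and with zeros taken as missing (Os12g0568200 in both) and with the replicate block (Os12g0571000, adjusted p = 0.0115). With the replicate block the adjusted p of Os12g0568200 in ZRR/ZMR was 0.149. As in every comparison, the reported fit did not pair libraries by replicate number. The deviations of ZRR 3 and ZMR 3 correlated at 0.0881. Each ZRR library nevertheless correlated best with the ZMR library of its own number, a hint from the data and not from the design. The block changed no other call of a member in the comparisons within a tissue. Among the log2 differences of members within roots, that of Os12g0570700 in ZMR/ZPR reversed, to 0.59 without ZPR replicate 3 and 0.42 without ZMR replicate 3, and leaving out 1 library at a time gave between -1.09 and 0.59. Over all loci, the calls in ZRR/ZMR, 27 as reported, ranged from 17 to 110 and those in ZMR/ZPR, 10 as reported, from 10 to 104, both highest with zeros taken as missing. The members have no zeros, so their own values and log2 fold changes stayed the same in that setting. For Os12g0571000 in ZRR/ZMR the log2 fold change was again -5.21, with an SE of 0.796 against 0.806. The setting reaches the members only through the spread shared with other loci and the adjustment over all loci. How much each weighed was not tested. Leaving out both ZRS 1 and ZRR 3 was added after the data were seen and changed no count of members called. In the isoform table the share of Os12g0567800 in ZPR moved to 1.12%. Counts of promoter motifs were planned and not run, because no sequence was analysed here. Shoot levels of the members near 1 FPKM or lower limit what could be detected there.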
